A study of Arabidopsis thaliana with 4 samples.

Results

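The genes described here are the plastid-encoded genes of Arabidopsis thaliana that serve gene expression, the NDH complex and a few other tasks. The subunits of the photosystems, the cytochrome b6f complex and ATP synthase and the large subunit of Rubisco were left aside. The rule for choosing genes used locus tag and symbol, not how genes differed between arrays. It was set with earlier results of these data known. A gene was kept where the platform annotation pairs a probe set with it alone and its mean signal was at least 29.05, the 40th percentile of non-control probe sets. This gave 36 of the 7322 genes tested: 15 for ribosomal proteins, 4 for RNA polymerase subunits, 10 for the NDH complex and 7 others. The filter removed no paired gene of these classes. A further 15 of the 51 plastid loci in these classes have no single-gene probe set in the annotation used here and were not analysed here.

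RNA from rosette leaves of 3-week-old Col-0 plants grown on soil, after germination on kanamycin, was hybridised to 4 Affymetrix ATH1 arrays, 1 per group and so without replicates. Vector plants carried pCP60, and overexpressor plants were of a single line, 52, that overexpresses ERD15, a small protein named for its early response to dehydration. Each genotype was sprayed either with water that held 0.07% ethanol (mock) or with 100 µM abscisic acid (ABA), the hormone of drought responses, in as much ethanol, and leaves were taken 90 min later. Pooling of 3 plants is stated for every group but vector mock, and the labels used here name no promoter for the transgene. One characteristic of the overexpressor samples reads as a knock-out, against their titles. ERD15 itself has no single-gene probe set here, so the genotype could not be checked.

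Plastid genes are read by a bacterial-type RNA polymerase, whose core subunits the plastid encodes, and by phage-type polymerases from the nucleus. Neighbouring genes are often read into joint precursors that are then cut, spliced and edited, and translated on a bacterial-type ribosome built from plastid-encoded and nuclear-encoded proteins. The NDH complex of the thylakoid membrane passes electrons from ferredoxin to plastoquinone and carries part of the cyclic electron flow around photosystem I.

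Most of the 36 genes had their highest signal in mock-sprayed vector plants and their lowest in mock-sprayed overexpressor plants. The highest signal lay on vector mock for 28 genes, against 32.6% of all genes tested, on vector ABA for 5, against 16%, and on overexpressor ABA for 3, against 27.9%. The lowest lay on overexpressor mock for 28, against 28.9%, and on overexpressor ABA for the other 8, against 20.1%. No gene was lowest on a vector array, where 25.1% (mock) and 25.9% (ABA) of all genes were, and none was highest on overexpressor mock, where 23.5% were. Both extremes, highest on vector mock and lowest on overexpressor mock, met in 22 genes, against 12.6%. Other lists had a like profile. Of 33 plastid genes for photosynthesis subunits, 23 were highest on vector mock and 28 lowest on overexpressor mock, and of 22 nuclear genes with a mean signal of 3000 or more, 17 and 18 were. Relative to each gene's own mean, the median log2 signal was 0.35 and 0.09 in vector plants after mock and ABA, and -0.38 and -0.10 in the overexpressor.

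**Figure D1:**
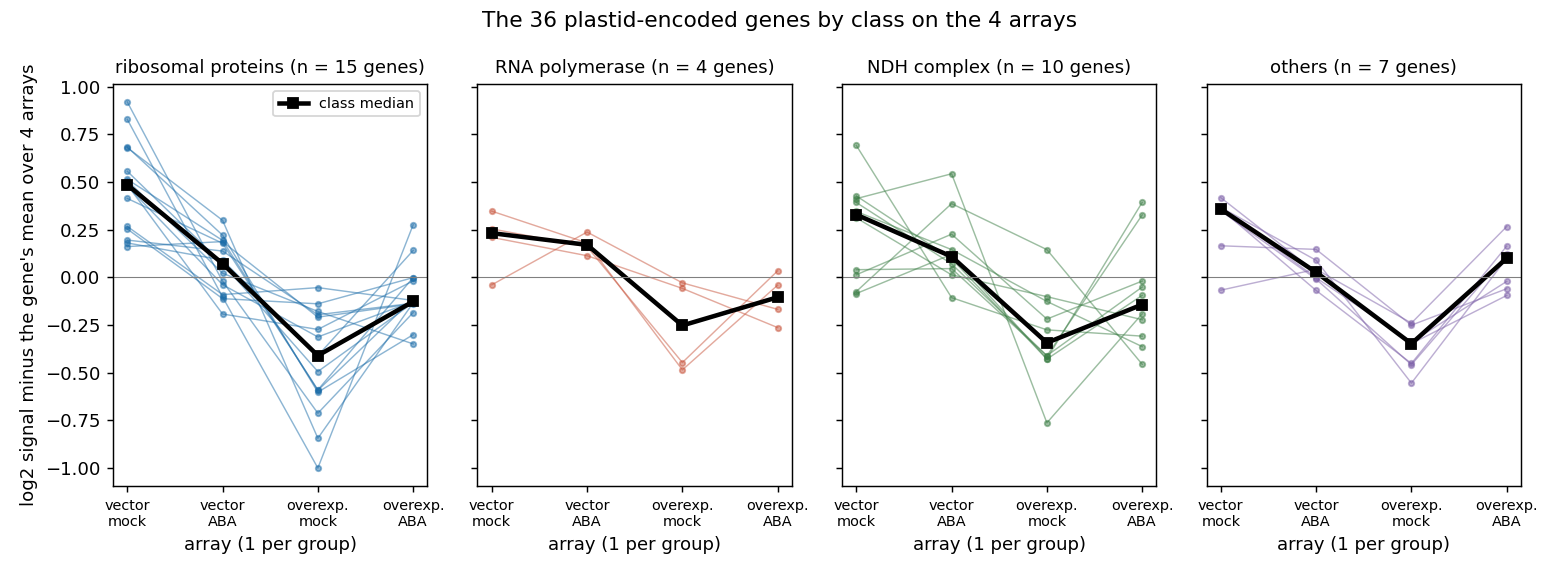
Log2 signal of each of the 36 plastid genes minus the gene's own mean (y axis) on the 4 arrays (x axis), with 1 panel per class; thin lines are genes and the thick line is the class median. The median over all 36 genes runs from 0.35 on vector mock to -0.38 on overexpressor mock.

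In what follows, signals are MAS5 intensities after scaling, and the first value of each genotype is mock and the second ABA. Differences between single arrays are log2 values with no test. Differences over all 4 arrays come from limma, with p-values adjusted over all 7322 genes. With 1 array per group these p-values do not measure variation between plants. The SE printed with them is set almost wholly by genes of like signal. It does not show how far a gene's own 4 arrays depart from the fit. Signals of different genes come from different probes, so a mean signal is used below only to group probe sets by brightness and is no measure of which transcript is more abundant. In whole leaves, fewer cells of a type and less RNA per cell cannot be told apart.

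The first comparison asks how overexpressor and vector plants differed. After mock spray, 34 of the 36 genes were lower in the overexpressor, against 56.2% of all genes, with a median difference of -0.73 against -0.09. That median was -0.43 with quantile and -0.44 with cyclic loess normalization, and -0.13 with each array centred on its median plastid gene. The median of all genes was in turn -0.06, 0.004 and 0.51. As reported, 8 of the 36 were at least 2-fold lower, against 5.42%, and none was 2-fold higher, against 4.9%. After ABA, 26 were lower, against 42.3%, with a median of -0.19 against 0.08. None then reached 2-fold, where 2.13% of all genes were that much lower and 3.93% higher. The median after ABA was -0.07 with quantile normalization (23 lower) and -0.05 with cyclic loess normalization (21 lower). It was -0.38 with arrays centred on the median (31 lower) and -0.09 with plastid centring (23 lower). The median of all genes after ABA was in turn 0.02, -0.0003, -0.11 and 0.18. As reported, both overexpressor arrays lay below both vector arrays for 23 genes, against 17.3%, and above them for none, against 18.5%.

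Over both treatments, rpl14 and ndhG fell in the overexpressor at a limma adjusted p under 0.05. These are 2 of the 36 genes, where 1.63% of all genes passed, 0.56% as lower and 1.07% as higher. At an unadjusted limma p under 0.05 there were 7, against 8.75%. The signal of rpl14 (ArthCp059), a protein of the large ribosomal subunit, was 381 and 292 in vector plants and 132 and 217 in the overexpressor. Its genotypes did not overlap, and the log2 difference was -0.98 ± 0.27 SE, or 1.97-fold (limma adjusted p = 0.0270). For ndhG (ArthCp077), a membrane subunit of the NDH complex, the signal was 506 and 553 in vector plants and 224 and 333 in the overexpressor. Here too both overexpressor arrays were below both vector arrays, by -0.96 ± 0.27 SE, or 1.94-fold (limma adjusted p = 0.0325). Both calls were lost with quantile normalization, at limma adjusted p = 0.287 for rpl14 and 0.203 for ndhG. Over the alternatives run, the adjusted p ranged from 0.0190 to 0.900 for rpl14 and from 0.0239 to 0.900 for ndhG.

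All 15 ribosomal protein genes were lower in the overexpressor after mock spray, against 56.2% of all genes, by a median of -0.79. Of these, 7 were lower by 2-fold or more, against 5.42%. Also lower after mock were 32 of the 33 plastid photosynthesis genes and 21 of the 22 nuclear genes at 3000 or more. After ABA 11 of the 15 were lower, against 42.3%, by a median of -0.18. The 7 large-subunit genes had a median of -1.05 after mock, and each was highest on vector mock and lowest on overexpressor mock. Both extremes met in 12.6% of all genes. For the 8 small-subunit genes the median after mock was -0.64, and 6 were lowest on overexpressor mock, against 28.9%. Whether the subunits differ was not tested.

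Of the large-subunit genes, rpl36 had the widest range. Its signal was 219 and 115 in vector plants and 61.6 and 149 in the overexpressor. After mock spray it was 3.55-fold lower in the overexpressor, whereas after ABA it was higher there by 0.38, so that the genotypes overlapped. Its difference over both treatments was -0.73 ± 0.29 SE (limma adjusted p = 0.291). After mock, rpl14 was 2.88-fold lower, and rpl20, rpl33 and rpl16 were 2.15-fold, 2.07-fold and 2.01-fold lower. The signal of rpl20 was 434 and 348 in vector plants and 202 and 281 in the overexpressor, and its genotypes did not overlap. That of rpl33 was 5124 and 3663 in vector plants and 2474 and 3178 in the overexpressor, again with no overlap. For rpl16 it was 1242 and 1055 in vector plants and 619 and 932 in the overexpressor, also without overlap. The last genes of this subunit, rpl22 and rpl32, differed by -0.79 and -0.39 after mock.

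Of the small-subunit genes, rps14 and rps16 were at least 2-fold lower in the overexpressor after mock spray. The signal of rps14 was 234 and 122 in vector plants and 75.5 and 109 in the overexpressor, a difference of 3.10-fold after mock and of -0.16 on the log2 scale after ABA. Vector mock stood far above the other arrays. For rps16 the signal was 307 and 223 in vector plants and 126 and 155 in the overexpressor, 2.44-fold lower after mock and lower by a log2 difference of -0.52 after ABA. Neither passed over both treatments, with a limma adjusted p of 0.0971 for rps14 and 0.0606 for rps16. With a stricter filter on dim probe sets rps16 passed (limma adjusted p = 0.0423). The signal of rps18 was 827 and 591 in vector plants and 514 and 457 in the overexpressor, lower after ABA in both genotypes. That of rps2 was 1233 and 1256 in vector plants and 954 and 1002 in the overexpressor, with little difference between sprays. The smallest difference after mock was -0.32 in rps15, whose signal was 203 and 158 in vector plants and 162 and 155 in the overexpressor. There vector mock stood above 3 similar arrays. The differences of rps3, rps4 and rps19 after mock were -0.76, -0.59 and -0.39.

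The 4 polymerase genes encode the core of the bacterial-type enzyme, rpoA its alpha subunit and rpoB, rpoC1 and rpoC2 its beta-type subunits. They split into pairs. The signal of rpoA was 423 and 397 in vector plants and 260.4 and 363 in the overexpressor. That of rpoB was 88.0 and 78.4 in vector plants and 49.4 and 67.3 in the overexpressor. Both were lowest on overexpressor mock, with differences of -0.70 and -0.83 after mock spray. The signal of rpoC1 was 848 and 1027 in vector plants and 854 and 775 in the overexpressor, level between the genotypes after mock. That of rpoC2 was 256 and 239 in vector plants and 213 and 184 in the overexpressor. Both of these were lowest on overexpressor ABA instead. The class medians were -0.48 after mock and -0.30 after ABA. The former was 0.12, with the sign turned, when arrays were centred on the median plastid gene. Such centring shifts all genes of an array alike, so the turned sign follows from the shift and is no result about this class. No polymerase gene passed for genotype (lowest limma adjusted p = 0.784).

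Of the 10 NDH genes, 9 were lower in the overexpressor after mock, against 56.2% of all genes, and 8 after ABA, against 42.3%. The medians were -0.46 and -0.22. The same shift by plastid centring turned the sign of the NDH median after mock, to 0.14. Apart from ndhG, at 2.26-fold, none was 2-fold lower after mock. Next came ndhF, a membrane subunit, with a mean signal of 49.0, not far above the filter. Its signal was 75.7 and 43.5 in vector plants and 38.7 and 37.8 in the overexpressor. Vector mock stood above the other arrays, which were alike. The signal of ndhI, an iron-sulphur subunit, was 6205 and 4937 in vector plants and 3428 and 4323 in the overexpressor. That of ndhH, a subunit of the stromal arm, was 276 and 221 in vector plants and 158 and 203 in the overexpressor. In both, the overexpressor arrays lay below the vector arrays, with limma adjusted p = 0.891 and 0.712.

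The gene ndhE, a small membrane subunit that lies beside ndhG on the plastid genome, went another way. Its signal was 649 and 894 in vector plants and 756 and 499 in the overexpressor. It was the one NDH gene that was higher in the overexpressor after mock, by 0.22, and it had the lowest difference of the class after ABA, -0.84. The neighbours ndhJ and ndhK, subunits of the stromal arm, were highest on overexpressor ABA. The signal of ndhK was 464 and 536 in vector plants and 366 and 647 in the overexpressor. That of ndhJ was 832 and 836 in vector plants and 608 and 1016 in the overexpressor. Both were thus lower in the overexpressor after mock and higher after ABA, the latter by 0.27 and 0.28. Next to them, ndhC, a membrane subunit, had 2572 and 2090 in vector plants and 1931 and 1776 in the overexpressor, highest on vector mock and lowest on overexpressor ABA. The membrane subunit genes ndhA and ndhD differed by -0.47 and -0.23 after mock and by -0.51 and -0.25 after ABA.

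The 7 other genes were all lowest on overexpressor mock, against 28.9% of all genes. Their median genotype difference was -0.77 after mock and 0.01 after ABA. The signal of cemA, an envelope membrane protein, was 1703 and 1405 in vector plants and 899 and 1415 in the overexpressor. That of ccsA, which serves the attachment of haem to c-type cytochromes, was 5382 and 4003 in vector plants and 3070 and 4703 in the overexpressor. For clpP, the catalytic subunit of the Clp protease that the plastid encodes, it was 4028 and 3144 in vector plants and 2303 and 3440 in the overexpressor. In these 3 genes, overexpressor ABA lay between the vector arrays. The photosystem I assembly genes ycf3 and ycf4 differed by -0.77 and -0.70 after mock and by -0.12 and -0.02 after ABA. The smallest difference after mock, -0.17, was that of accD, a subunit of the plastid acetyl-CoA carboxylase of fatty acid synthesis, with 596 and 643 in vector plants and 529 and 751 in the overexpressor. The signal of matK, a splicing factor for plastid introns, was 3426 and 3381 in vector plants and 2567 and 2931 in the overexpressor, with no overlap of the genotypes. None of the 7 passed for genotype (lowest limma adjusted p = 0.738, ycf3).

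**Figure D2:**
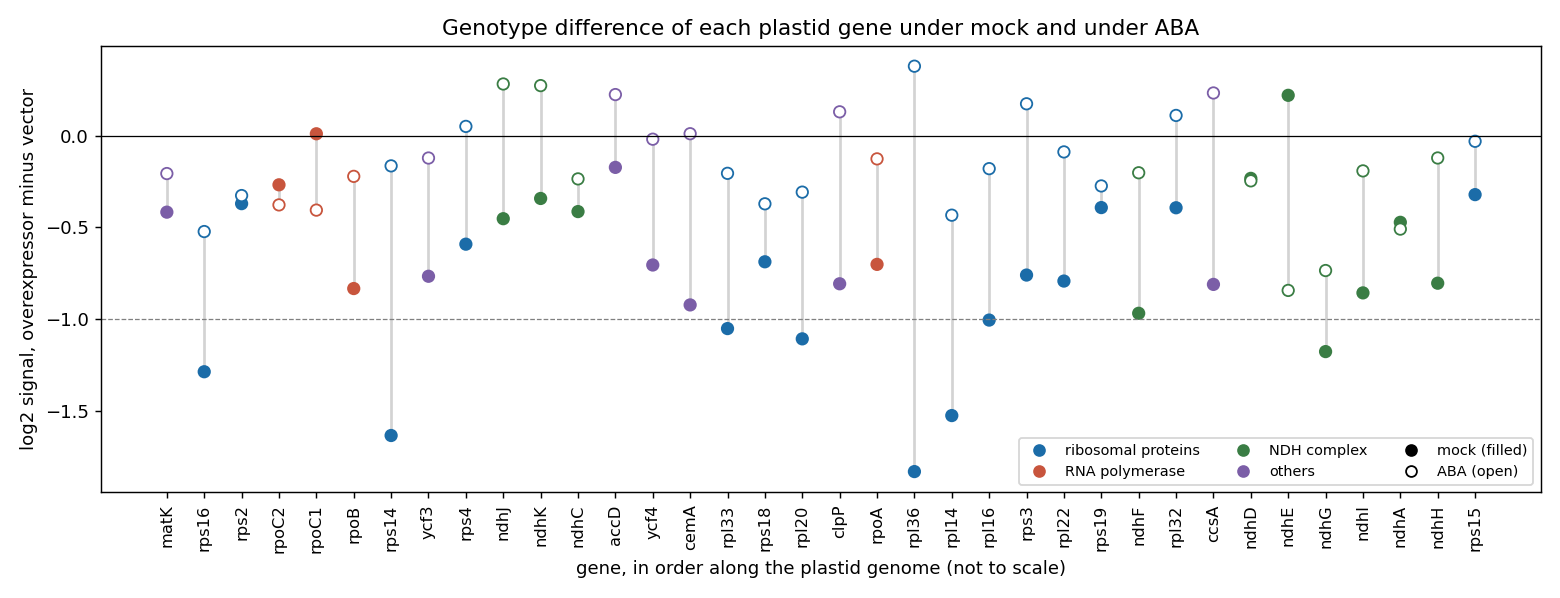
Log2 signal in the overexpressor minus that in vector plants (y axis) for each plastid gene in its order along the plastid genome (x axis); filled points are mock and open points ABA, 1 array per group, coloured by class. Of the filled points 8 lie below the dashed line, which marks 2-fold lower, and of the open points none, and rpl36 has the lowest filled point, -1.83.

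Gene clusters cut across the classes. From rpoA through rpl36, rpl14, rpl16, rps3 and rpl22 to rps19, all 7 measured genes were lower in the overexpressor after mock, by a median of -0.79 and a range of -1.83 to -0.39. The cluster of rpoB, rpoC1, rpoC2 and rps2 had a median of -0.32 and a range of -0.83 to 0.01. After ABA their medians were -0.13 and -0.35. The 6 genes from ndhH to ndhD had medians of -0.64 after mock and -0.38 after ABA, and ndhC, ndhK and ndhJ had -0.41 and 0.27. Genes of a cluster share precursors and are not independent.

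The second comparison asks how ABA-sprayed and mock-sprayed plants differed. No gene of the 36 passed the limma threshold, where 3.11% of all genes passed, 1.45% as lower and 1.67% as higher. None had an unadjusted limma p under 0.05 either, where 8.99% of all genes had. The median over both genotypes was 0.03, with a range from -0.42 to 0.51. Its ends were ndhF, at -0.42 ± 0.44 SE, and ndhK, at 0.51 ± 0.28 SE (limma adjusted p = 0.622 for ndhK). Both ABA arrays were above both mock arrays for 3 genes, ndhJ, ndhK and accD, against 15.4% of all genes, and below them for 1, rps15, against 16.6%.

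Within the genotypes the median differences had opposite signs. In vector plants 28 of the 36 genes were lower after ABA, against 57.3% of all genes, with a median of -0.31 against -0.09. In the overexpressor 8 were lower, against 44.7%, and 28 higher, with a median of 0.33 against 0.06. The medians in vector plants and in the overexpressor were -0.25 and 0.31 with quantile normalization. They were -0.13 and 0.13 with arrays centred on the median, and -0.03 and 0.11 with plastid centring. Lower in vector plants and higher in the overexpressor were 22 genes, against 31.8% of all genes and 23 of the 33 plastid photosynthesis genes. The reverse held for 2, ndhE and rpoC1, against 19.2%. In vector plants none differed by 2-fold, where 5.33% of all genes were that much lower and 4.85% higher. In the overexpressor rpl36 alone was 2-fold higher, at 2.42-fold, against 5.01%, and none was 2-fold lower, against 3.55%.

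By class, the median ABA difference was -0.38 in vector plants but 0.30 in the overexpressor for ribosomal protein genes. It was -0.09 against 0.15 for polymerase genes, -0.10 against 0.27 for NDH genes and -0.36 against 0.51 for the others. In all 7 genes of the cluster from rpoA to rps19 the level was lower after ABA in vector plants and higher in the overexpressor. The widest contrasts were those of rpl36, at -0.93 against 1.28, and rps14, at -0.94 against 0.53. Lower after ABA in both genotypes were rpoC2, ndhA, ndhC, ndhF, rps15 and rps18. Overexpressor minus vector, the ABA difference had a median of 0.64, against 0.14 for all genes, 0.59 for plastid photosynthesis genes and 0.66 for nuclear genes at 3000 or more, and was negative for 5, against 42.2%. It reached 2-fold upwards in 4 genes (rpl36, rps14, rpl14 and ccsA), against 11.9%, and downwards in 1, ndhE, against 6.76%. The upward share is near that of all genes, and the contrast has no test.

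**Figure D3:**
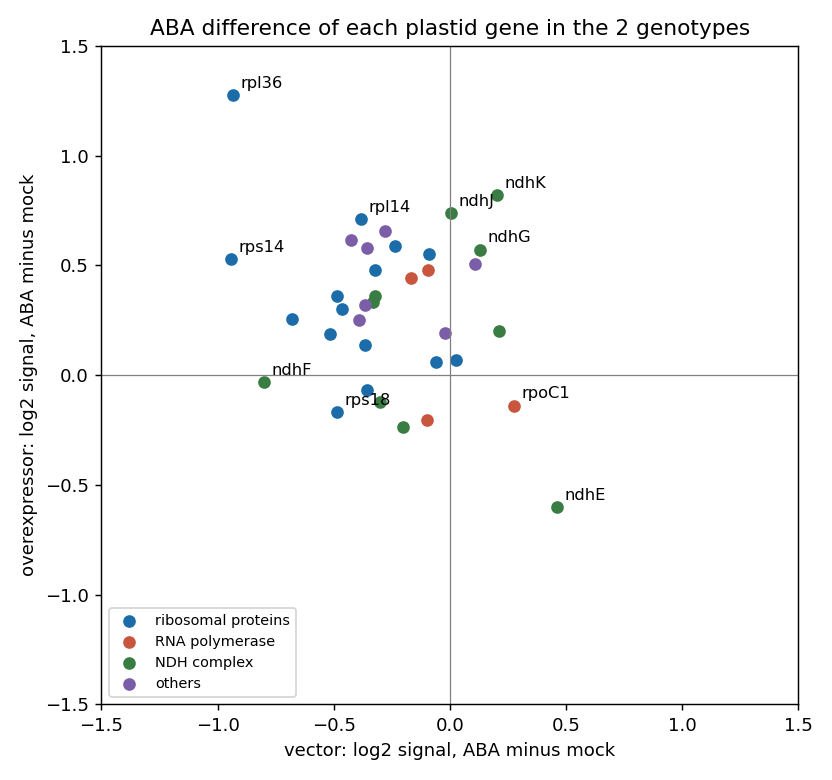
Log2 signal of ABA minus mock in vector plants (x axis) against that in the overexpressor (y axis) for each of the 36 plastid genes, 1 array per group, coloured by class. The 22 genes at the upper left were lower in vector plants and higher in the overexpressor, with rpl36 and rps14 farthest out, and ndhE lies at the lower right.

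Several array-wide values also differed between the arrays, some with a profile only partly like that of the plastid genes. Of the ribosomal RNA controls, 25S was highest on vector ABA and lowest on overexpressor mock. The 5S control was highest on vector mock and lowest on overexpressor ABA. The 25S ribosomal RNA control read 1833 and 2109 in vector plants and 262 and 833 in the overexpressor, and the 5S control read 104 and 61.5 in vector plants and 70.0 and 34.3 in the overexpressor. The 22 nuclear genes with a mean signal of 3000 or more had a median genotype difference of -0.75 after mock, the 134 at 1000 or more had -0.38, and the 7119 below 1000 had -0.08. The ABA difference of the 22 had a median of -0.24 in vector plants and 0.44 in the overexpressor. Among the plastid genes described here, the 14 at 1000 or more had -0.53 and the 22 below 1000 had -0.78. These strata are not matched in brightness to the nuclear ones. Below 1000, the median log2 signal on vector mock was 8.74 for plastid genes and 6.37 for nuclear genes. At 1000 or more it was 11.6 and 10.6. Of 8 leaf markers, RCA, LHCB4.2 and PORB were measured, and their summed signal was 19348 and 13951 in vector plants and 10088 and 15119 in the overexpressor. The markers differed among themselves: after ABA, RCA and LHCB4.2 differed between the genotypes by 0.03 and -0.06, but PORB by 1.19, and PORB differed by -1.43 between ABA and mock in vector plants. None of 4 root or 7 flower, seed and pollen markers was measured, and FMA, 1 of 3 guard cell markers, was between 38.4 and 61.8. With quantile normalization, which gives the arrays the same distribution of signal, the plastid genes' median after mock was -0.43, and 30 of 36 were lower. The part of these array-wide values in the results was not tested.

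The 33 plastid genes for photosynthesis subunits, set beside the 36, had a median genotype difference of -0.53 after mock. Of these, 32 were lower, against 56.2% of all genes, and 3 at least 2-fold lower, against 5.42%. Their ABA difference had a median of -0.14 in vector plants and 0.31 in the overexpressor. With quantile normalization the genotype median was -0.12, against -0.43 for the 36. When each array was centred on its median plastid gene, ribosomal protein genes stood at -0.19 and the others at -0.16, but polymerase genes at 0.12 and NDH genes at 0.14. The difference between the lists was not tested.

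**Figure D4:**
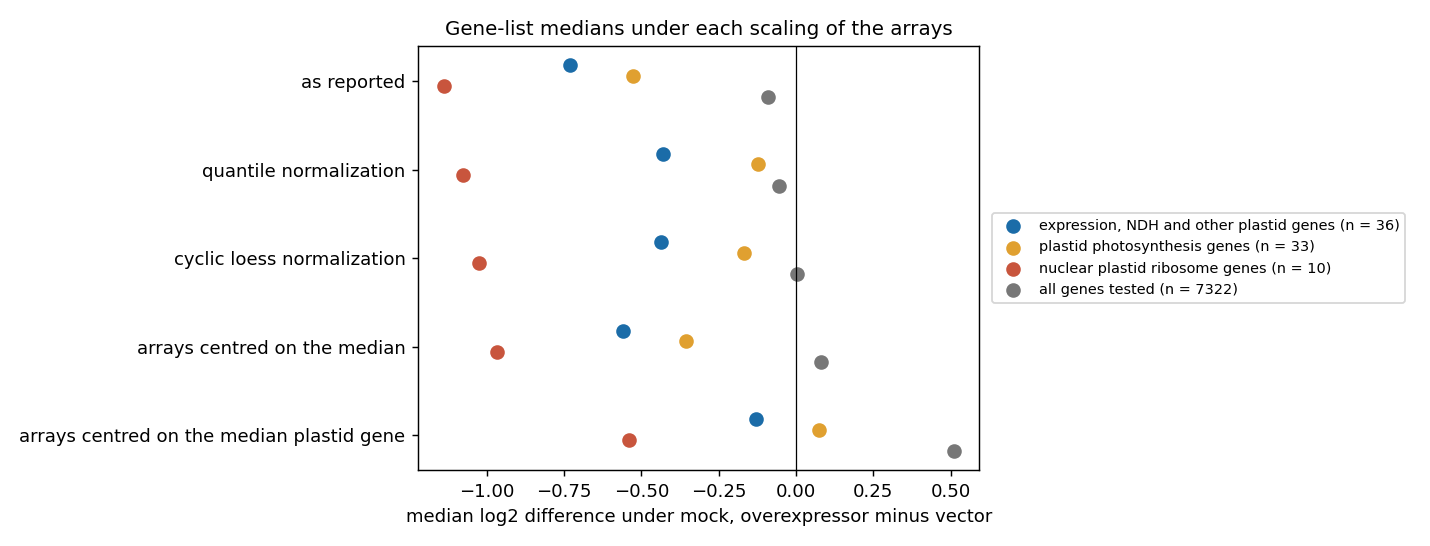
Median log2 difference of the overexpressor from vector plants after mock spray for 4 gene lists under 5 ways of scaling the arrays. Nuclear genes of the plastid ribosome run from -1.14 to -0.54, and the 36 plastid genes from -0.73 to -0.13.

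Nuclear genes for partners in the same complexes were measured in part. Of 40 listed nuclear genes of the plastid ribosome 10 were measured. The reference gives these 10 by locus number only and does not bear on their identity, so that this list and its counts rest on general knowledge of the loci. All 10 were lower in the overexpressor after mock, against 56.2% of all genes, by a median of -1.14. After ABA 9 were lower, against 42.3%, by a median of -0.68. For genotype 4 of the 10 fell at a limma adjusted p under 0.05, where 0.56% of all genes passed as lower. Of these, AT5G47190 differed by -1.28 ± 0.28 SE (limma adjusted p = 0.000904), with log2 signals of 9.74 and 9.69 in vector plants and 8.51 and 8.36 in the overexpressor. Its genotypes stood apart after both sprays. The others were AT3G13120 at -1.04 ± 0.30 SE, AT4G01310 at -1.02 ± 0.29 SE and AT4G17560 at -0.99 ± 0.27 SE (limma adjusted p = 0.0417, 0.0334 and 0.0242). None of the 10 passed with quantile normalization, where the limma adjusted p of AT5G47190 was 0.0615 and the median after mock -1.08. Cyclic loess normalization and centring on the median or on the median plastid gene left none past the threshold either. Nor did any pass with no filter on dim probe sets or without a trend on signal in the fit. None passed for ABA.

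Of 23 listed nuclear genes for NDH subunits and assembly, NdhL, NdhN and NdhS were measured, with a median of -1.09 after mock. NdhN fell in the overexpressor, by -0.93 ± 0.27 SE (limma adjusted p = 0.0414), with log2 signals of 9.15 and 8.97 in vector plants and 7.95 and 8.31 in the overexpressor. That call was lost with quantile normalization (limma adjusted p = 0.242). It was also lost with cyclic loess normalization and with centring on the median or on the median plastid gene. The same held with a pseudocount of 16, with no filter on dim probe sets and without a trend on signal in the fit. NdhL and NdhS differed by -0.84 ± 0.28 SE and -0.45 ± 0.27 SE (limma adjusted p = 0.118 and 0.731). None of the 3 passed for ABA. No gene was measured of the 12 listed polymerase-associated proteins, the 8 sigma factors and phage-type polymerases or the 4 nuclear subunits of the acetyl-CoA carboxylase.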

How the data were processed

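The authors deposited linear signal intensities for 4 arrays. MAS5 is named as the tool per the submitters' processing notes, with its version not given in the sources used here. Deposited arrays already had trimmed means from 99.1 to 99.3, so that a difference in total RNA cannot be seen. No detection calls were used.

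Of 22810 probe sets 64 are controls, 13513 have 1 gene and 503 several in the platform annotation, and 13436 of the 13513 matched the TAIR10.1 RefSeq table, used for names and gene order. Arrays were scaled to a 2%-trimmed mean of 100 and floored at the pooled 25th percentile (13.3) ahead of the log2 step. Where a gene had several probe sets, the brightest was used. limma 3.58.1 in R 4.3.3 fitted genotype and treatment as additive terms, with a trend on signal in eBayes and Benjamini-Hochberg adjustment at 0.05. Each gene leaves 1 residual degree of freedom, against a prior of 3199, and the fit was tested on simulated data.

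Members and lists were chosen with earlier results of these data known. All 36 genes are named, with signals on every array for those past the threshold and for the extremes of each class, as are partner genes past the threshold. A list of mitochondria-encoded genes held no measured gene. Alternatives were 4 other scalings, a pseudocount of 16 in place of the floor, no filter, a filter at the 60th percentile (63.1), a mean over probe sets and no trend. Leaving out each array was added after seeing the data. No sequence of these genes was in the files used here.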

Additional observations from a re-analysis of the deposited data

Results flagged for a closer look

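ABA went with opposite differences in the genotypes, each by a log2 of 0.5 or more, for rpl36 and rps14. Their mean signals were 136 and 135. The share of all genes that met this rule is not given here, so these genes are not set apart by it. Overexpressor minus vector, the ABA difference was 2.21 for rpl36 and 1.47 for rps14. Over the 36 plastid genes its median was 0.64, with a negative median in vector plants and a positive one in the overexpressor. It was of like size, 0.59, over 33 plastid photosynthesis genes and 0.66 over 22 nuclear genes with a mean signal of 3000 or more. Each genotype has 1 pair of arrays, and the difference was not tested.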

How the results depend on the processing

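Under the 9 alternatives that rescale, refilter or refit all arrays, no gene of the 36 passed for ABA. For genotype, 2 passed with a pseudocount or a mean over probe sets and 3 with the stricter filter, but 0 with quantile or cyclic loess normalization, centring on the median or on the median plastid gene, no filter or no trend. Of all genes, 228 passed for ABA and 119 for genotype as reported, 116 and 6 with quantile and equally with cyclic loess normalization, 60 and 4 with median centring, 101 and 73 with plastid centring, 9 and 1 without a trend, and none without a filter. The cause was not tested.

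The median genotype difference after mock was -0.43 with quantile and -0.44 with loess normalization, and that of the 7 other genes -0.37 and -0.40. Median centring gave 0.28 for the contrast of the ABA differences and 5 genes at least 2-fold lower after mock. Plastid centring removes by construction what plastid genes share. It gave medians of -0.038 for genotype, -0.13 after mock, where all genes stood at 0.51, and 0.14 for the contrast. After mock 21 genes were then lower, 2 of them at least 2-fold, 17 were lowest on overexpressor mock, 14 highest on vector mock and 13 opposite in the genotypes. Class medians were -0.19 (ribosomal), -0.16 (others), and, with the sign turned, 0.12 (polymerase) and 0.14 (NDH).

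Leaving out each array gave medians from -0.73 to -0.19 for genotype and from -0.31 to 0.33 for ABA, negative without either overexpressor array. These repeat the medians of the single-array differences given above and are no further check. With 1 array per group, replicates could not be paired, and the additive fit compared sprays within genotypes and genotypes within sprays. Without detection calls, low signals such as those of ndhF and rpoB may include background.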

Other observations

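Genes grouped by other features gave these values. The 4 genes known to be read mainly by the phage-type polymerase of the nucleus (rpoB, rpoC1, rpoC2 and accD) had a median genotype difference of -0.22 after mock and -0.30 after ABA. The 6 with an intron (ndhA, rpl16, rpoC1, clpP, ycf3 and rps16) had -0.79 and -0.29, and rpoC1 was the highest of them after mock at 0.01. Nuclear partners of clpP that were measured, CLPP4 and AT1G09130, differed by -0.22 and -0.25 after mock. PGRL1B, of the other route of cyclic electron flow, was higher in the overexpressor by 0.28 after mock and 0.36 after ABA (limma adjusted p = 0.916). Across the 36 genes, which share the arrays, the genotype difference after mock had a Spearman rho of 0.25 with mean log2 signal and of 0.17 with gene length.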
